A study of Arabidopsis thaliana with 6 samples.

Results

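The *CBF* genes and the cold-responsive genes that they are known to switch on were followed by gene identifier through the gene counts of 6 RNA-seq libraries of *Arabidopsis thaliana* flowers. The set holds 10 of the 33610 genes in the count files. The genes were listed by name, with earlier results of these data known, and comprise the transcription factor genes *CBF1* (AT4G25490), *CBF2* (AT4G25470) and *CBF3* (AT4G25480) and 7 genes that encode protective proteins or enzymes, here called effectors. The effectors are *COR15A* (AT2G42540), *COR15B* (AT2G42530), *KIN1* (AT5G15960), *KIN2* (AT5G15970), *RD29A* (AT5G52310), *COR47* (AT1G20440) and *GOLS3* (AT1G09350).

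All plants carried, by their labels, mutations of *SEP1* and *SEP2*, MADS-box genes that help to specify floral organs. The groups were *sep1 sep2*, *sep1 sep2 sep3*, which also carries a mutation of *SEP3*, and *sep1 sep2 sep3* plants expressing *SEP3*, written *sep1 sep2 sep3 SEP3*, with 2 libraries each. The last 2 libraries came from independent lines. The tissue was the inflorescence meristem with buds no older than stage 11, from plants raised side by side under long days, and no cold treatment is named. The promoter in front of *SEP3*, the age of the plants, the number of plants per library and the hour of harvest are not given in the sources used here. No source says that the replicates of a mutant came from separate batches of plants, so p-values measure the spread between these libraries, which may be technical.

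CBF proteins, also called DREB1 proteins, belong to the AP2/ERF family of transcription factors. Their genes are switched on within minutes of a drop in temperature and also by touch, the response is gated by the circadian clock, and the proteins bind a short element, the C-repeat or dehydration-responsive element (CRT/DRE), in front of the effector genes. The effectors then accumulate over hours and stabilise membranes and proteins during freezing or drying, and several of them respond to abscisic acid as well.

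To show where the effectors carry the CRT/DRE core, the 500 bases in front of each start codon were read from the RefSeq assembly TAIR10.1 and searched on both strands. The core CCGAC was found in front of 7 of 7 effectors and of 0 of 3 *CBF* genes, while 23.3% of 27443 protein-coding genes had it in a window of the same length. *RD29A* had 4 copies and *COR15A* and *GOLS3* had 2 each, and 4.42% of all genes had 2 or more. The effectors were listed as known targets of the CBF proteins, so the core in front of them is no independent result. The 3 *CBF* genes are too few to set against the share of all genes. The copy nearest to the start codon of each effector and the 3 other copies of *RD29A* are printed here, with 10 bases on either side. They are given on the gene's own strand with the core in capitals. In *GOLS3* the core lies on the other strand and reads GTCGG.
*COR15A* (chr2:17712218-17712242, minus strand): aatttcatggCCGACctgctttttt
*COR15B* (chr2:17710124-17710148, minus strand): aacttgatggCCGACctcttttttc
*KIN1* (chr5:5209804-5209828, plus strand): taaatagctaCCGACataaggcaaa
*KIN2* (chr5:5211771-5211795, plus strand): taaaaagctaCCGACataaggcaaa
*RD29A*, nearest copy (chr5:21240711-21240735, plus strand): aaagatcaagCCGACacagacacgc
*RD29A*, next copy (chr5:21240674-21240698, plus strand): agatatactaCCGACatgagttcca
*RD29A*, next copy (chr5:21240617-21240641, plus strand): aaatatcataCCGACatcagtttga
*RD29A*, farthest copy (chr5:21240567-21240591, plus strand): tagacatggaCCGACtactaataat
*COR47* (chr1:7085918-7085942, minus strand): tattcatctaCCGACttcaagaaat
*GOLS3* (chr1:3019424-3019448, plus strand): tcggccatggGTCGGacaaaataga

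The cores lay between 178 and 465 bases in front of the start codon, and the copies nearest to the start codon of *COR15A*, *COR15B*, *KIN1*, *KIN2*, *RD29A* and *COR47* fall within the annotated 5′ part of the gene. The core of the abscisic acid response element, ACGTG, was present in front of all 10 genes and of 34.8% of all genes. Where it is part of the palindrome CACGTG, 1 site is matched on both strands. The element bound by CAMTA factors, CGCGT, occurred in front of *CBF2*, *RD29A* and *COR47* and of 13.4% of all genes. The CArG box, to which MADS-box proteins bind, was searched only in a strict form. This form is CC and GG with 6 bases of A or T between them. It was found in front of none of the 10 and of 4.34% of all genes. The site in the *KNU* promoter that the paper predicts to be strongly bound departs from this form. The paper also assigned binding over a wider region around each gene. The result says only that the strict form is not in these windows, and other forms were not searched.

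**Figure D1:**
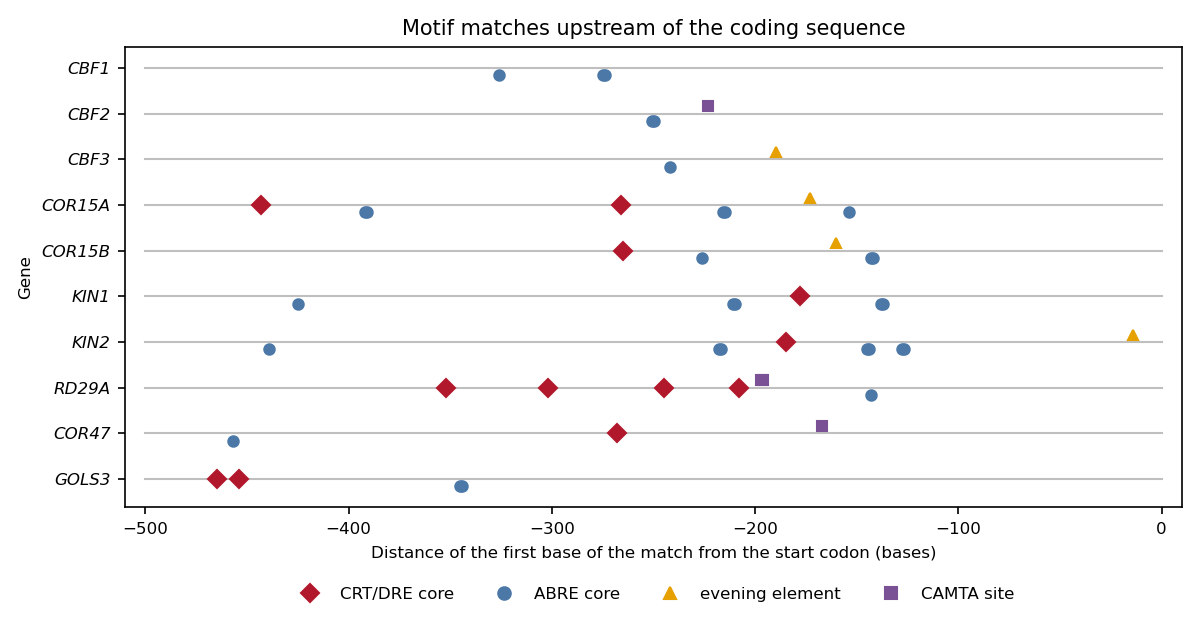
Motif matches in the 500 bases before the start codon of each gene (x axis, distance of the first base of a match from the start codon in bases; y axis, gene). Symbols mark the CRT/DRE core, the abscisic acid response element (ABRE) core, the evening element and the CAMTA site on either strand; the CRT/DRE core appears in the 7 effectors and in none of the 3 *CBF* genes.

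The evening element AAAATATCT, through which the clock proteins CCA1 and LHY are known to act, was found in front of *CBF3*, *COR15A*, *COR15B* and *KIN2* and of 4.02% of all genes. It is printed for these 4 because some clock genes differed between the same libraries, as described further on. All 4 matches lie within the annotated gene, and that of *KIN2* begins 14 bases before the start codon. The letters of the element are in capitals.
*CBF3* (chr4:13019175-13019203, minus strand): ttttgcctctAAAATATCTtccgccatta
*COR15A* (chr2:17712121-17712149, minus strand): taatgtgcaaAAAATATCTtactcttaat
*COR15B* (chr2:17710015-17710043, minus strand): gcaatgcgcaAAAATATCTagcactcaca
*KIN2* (chr5:5211942-5211965, plus strand): ttacaagaaaAAAATATCTgaaaa

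The libraries held between 24000063 and 31263376 counts, and levels are given as CPM, the counts of a gene relative to the library total, after TMM scaling with factors from 0.963 to 1.04. Of counts from 1 to 20, between 85.9 and 88.3% were even, so that a read pair mostly gave 2 counts. All floral marker genes checked (*LFY*, *AP1*, *AP3*, *PI*, *AG* and *WUS*) were detected in every library, and the stem cell gene *CLV3* had 0 to 4 counts. *SEP3* stood at 130 and 136 CPM in *sep1 sep2*, at 150 and 151 CPM in *sep1 sep2 sep3*, and at 489 and 332 CPM in *sep1 sep2 sep3 SEP3*. The 2 libraries with the label *sep1 sep2 sep3* thus had no fewer *SEP3* counts than *sep1 sep2*. Which part of the transcript this mutation leaves is not given in the sources used here, so these libraries are called the labelled triple mutant here, and all directions that involve them rest on the label. Reads of the other mutated genes were counted as well, with *SEP1* between 2.00 and 5.6 CPM in all libraries. *SEP2* had 79.2 and 44.3 CPM in *sep1 sep2*, 15.5 and 11.5 CPM in the labelled triple mutant and 16.6 and 108 CPM in the *SEP3* lines, and was called 4.58-fold lower in the labelled triple mutant than in *sep1 sep2* (FDR 0.0131 from edgeR's test), so the labels of these mutations are not checked by the counts either. In the labelled triple mutant the summed level of 14 tapetum and pollen wall genes was 231 and 160 CPM, against 2649 and 3108 CPM in *sep1 sep2* and 2884 and 1545 CPM in *sep1 sep2 sep3 SEP3*.

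Summed over the 10 genes, the level was 2158 and 2004 CPM in *sep1 sep2*, 810 and 434 CPM in the labelled triple mutant and 645 and 725 CPM in *sep1 sep2 sep3 SEP3*. *KIN2* made up most of this sum. To set different genes side by side, levels were divided by kilobases of exon annotated in TAIR10.1. This scale is rough. The exons counted by the authors may differ, and reads that mapped to several places were left out. On it, the mean in *sep1 sep2* was 1834.5 CPM for *KIN2*, 154 CPM for *COR15B* and for *COR15A*, 54.5 CPM for *COR47* and 27.2 CPM for *RD29A*. It was 8.12 CPM for *KIN1*, 5.89 CPM for *CBF3*, 1.63 CPM for *CBF1*, 1.55 CPM for *CBF2* and 0.0512 CPM for *GOLS3*. On this scale the replicates of *COR15A* and *COR15B*, of *KIN1* and *CBF3*, and of *CBF1* and *CBF2* overlapped, and the other neighbours in this order did not.

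**Figure D2:**
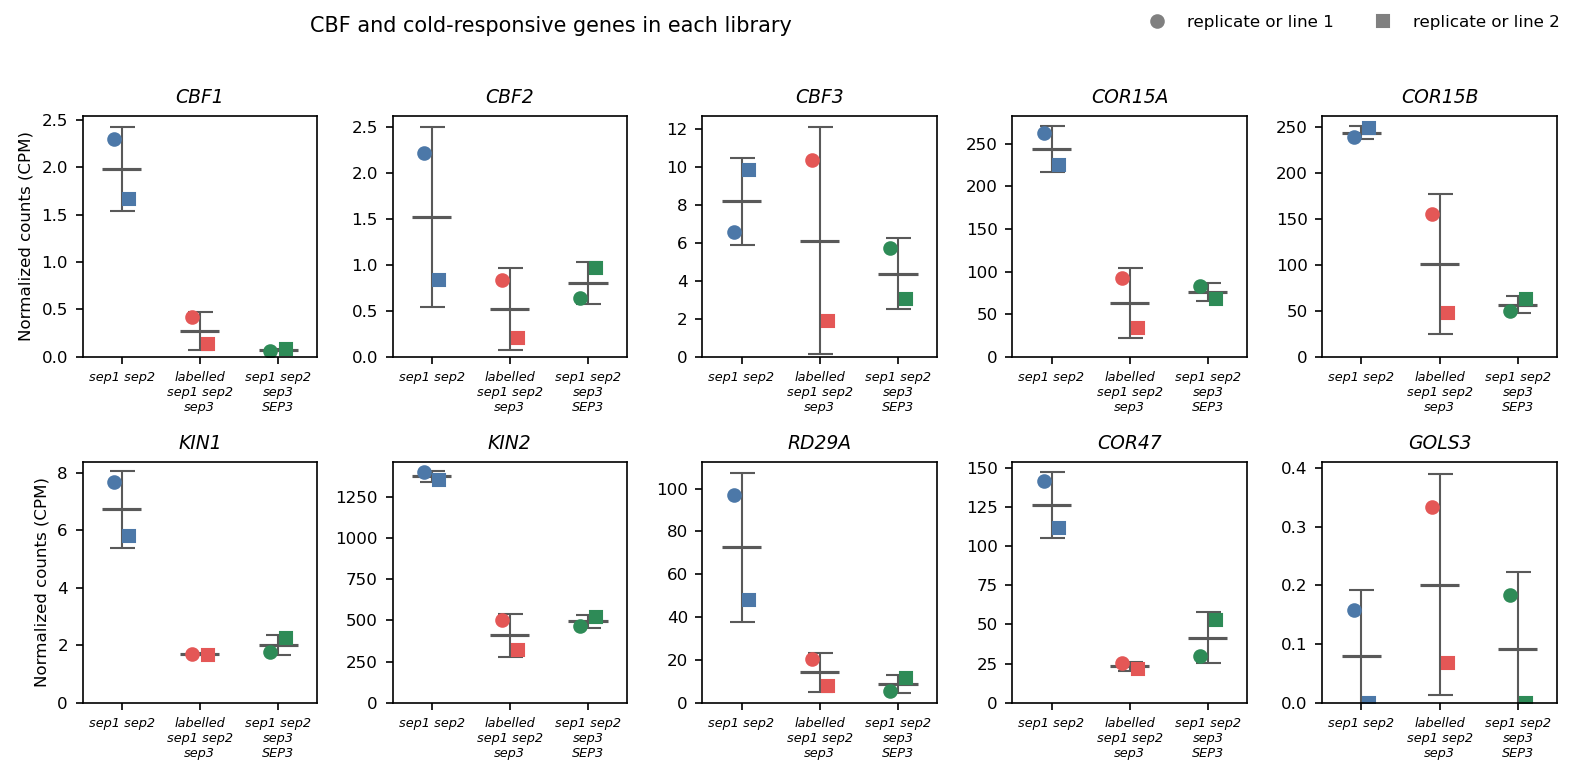
Normalized counts (CPM, y axis, starting at 0) of the 10 genes in each library by genotype (x axis). Circles are replicate or line 1 and squares replicate or line 2, horizontal lines are means and whiskers are 1 SD (n = 2). In *CBF1*, *COR15A*, *COR15B*, *KIN1*, *KIN2*, *RD29A* and *COR47* both *sep1 sep2* libraries lie above the other 4.

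The first comparison asks what changes when *SEP3* is mutated in *sep1 sep2*. In the labelled triple mutant, *CBF1* and 6 of the 7 effectors were lower than in *sep1 sep2*, by 2.41-fold for *COR15B* up to 7.25-fold for *CBF1*. None of the 10 genes was called higher, and *CBF2*, *CBF3* and *GOLS3* did not pass the test. Genes were called at a log2 fold change above 1 or below -1 with a Benjamini-Hochberg FDR under 0.05 in the quasi-likelihood test of edgeR over 25458 genes. The 7 of 10 called compare with 8.24% of all genes tested, and the 7 called lower with 7.3%, while 0.939% of all genes were called higher. The median log2 fold change was -1.85 over the 10 genes and -0.034 over all genes. In 7 of the 10 both labelled triple mutant libraries lay below both *sep1 sep2* libraries, which held for 29.8% of all genes (25.2% for the opposite order, shown by none of the 10). An exact permutation test on 2 against 2 libraries cannot give a p below 0.333, so the tests rest on the spread that edgeR shares between genes. In bulk tissue, fewer cells that express a gene and less RNA of it per cell cannot be told apart.

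*CBF1* had 58 and 40 counts in *sep1 sep2* (2.30 and 1.67 CPM), 10 and 4 counts in the labelled triple mutant (0.418 and 0.136 CPM) and 2 counts in each *sep1 sep2 sep3 SEP3* line (0.0614 and 0.0806 CPM). Both *sep1 sep2* libraries were above the other 4, and each *SEP3* line had the equivalent of a single read pair. The log2 fold change in the labelled triple mutant was -2.86 (SE 0.67, FDR 0.00884 from edgeR's test). Without *sep1 sep2* replicate 1 it was -2.59 with an FDR of 0.106, and without replicate 2 of the labelled triple mutant it was -2.23 with an FDR of 0.11. Without replicate 1 of the latter it was -3.82. *CBF1* was therefore called lower, at few counts and with a call that needed those libraries.

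*CBF2* had 2.22 and 0.833 CPM in *sep1 sep2*, 0.836 and 0.203 CPM in the labelled triple mutant and 0.645 and 0.968 CPM in *sep1 sep2 sep3 SEP3*. The first *sep1 sep2* library stood above the other 5, and the groups overlapped. Its log2 fold change in the labelled triple mutant was -1.58 (95% interval -3.05 to -0.12, FDR 0.143 from edgeR's test). *CBF3* was the most abundant of the 3 *CBF* genes per kilobase, with 6.57 and 9.83 CPM in *sep1 sep2*. It had 10.4 and 1.90 CPM in the labelled triple mutant, which differed more between replicates than the genotypes did, and 5.71 and 3.06 CPM in *sep1 sep2 sep3 SEP3*. The log2 fold change of *CBF3* was -0.43 (95% interval -1.53 to 0.66, FDR 0.636 from edgeR's test). Without replicate 1 of the labelled triple mutant, *CBF3* was called lower at -2.11 (FDR 0.00783), and without replicate 2 its value was 0.34.

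The makeup of the *CBF* counts, not corrected for length, differed between libraries. *CBF1* gave 20.7 and 13.5% of the summed counts of the 3 genes in *sep1 sep2*, 3.60 and 6.06% in the labelled triple mutant and 0.957 and 1.96% in *sep1 sep2 sep3 SEP3*. *CBF3* gave between 59.3 and 89.2% in every library. The coding sequences of *CBF1* and *CBF2* are 86.3% identical with a longest shared run of 68 bases. Reads that mapped to several places were left out, and how many came from these genes is not known, so the split between the 3 genes is uncertain. The 3 genes lie next to each other on chromosome 4 of TAIR10.1, all on the minus strand, *CBF2* at 13015250 to 13016235, *CBF3* at 13018010 to 13019400 and *CBF1* at 13021780 to 13022996.

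*COR15A* and *COR15B*, adjacent genes on chromosome 2 for small proteins of the chloroplast stroma that stabilise membranes, were both called lower in the labelled triple mutant. *COR15A* had 262 and 224 CPM in *sep1 sep2*, 91.9 and 34.3 CPM in the labelled triple mutant and 83.2 and 68.4 CPM in *sep1 sep2 sep3 SEP3*. The other 4 libraries were all below *sep1 sep2*, and the fall in the labelled triple mutant was 3.87-fold (log2 fold change -1.95, SE 0.29, FDR 0.000304 from edgeR's test). Without replicate 1 of those libraries the log2 fold change was -2.82.

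*COR15B* had 239 and 249 CPM in *sep1 sep2*, 155 and 47.5 CPM in the labelled triple mutant and 50.3 and 63.2 CPM in *sep1 sep2 sep3 SEP3*. Replicate 1 of the labelled triple mutant lay between *sep1 sep2* and the other 3 libraries. The log2 fold change of *COR15B* was -1.27 (SE 0.33, FDR 0.0172 from edgeR's test). This call was lost in 7 of 15 alternatives, with FDR values from 8.53e-06 to 0.172 over the 15, among them those without either *sep1 sep2* replicate and without replicate 2 of the labelled triple mutant, where the value was -0.65. Without replicate 1 of the latter it was -2.36. *COR15B* overlaps the gene AT2G42520 on the other strand over 468 bases in the annotation, and whether strand was used in counting is not stated. AT2G42520 had between 1146 and 1480 counts in every library.

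*COR15B* relative to *COR15A*, as the ratio of their CPM, was 0.911 and 1.11 in *sep1 sep2* and 1.69 and 1.38 in the labelled triple mutant. It was 0.605 and 0.925 in *sep1 sep2 sep3 SEP3*, so that the ratio was highest in the labelled triple mutant. The coding sequences of both are 82.6% identical.

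*KIN1* and *KIN2* lie in tandem on chromosome 5 and encode nearly identical small hydrophilic proteins that are induced by cold and abscisic acid. *KIN2* had 1399 and 1353 CPM in *sep1 sep2*, 503 and 319 CPM in the labelled triple mutant and 468 and 522 CPM in *sep1 sep2 sep3 SEP3*. The replicates of *sep1 sep2* lay close together and far above the other 4 libraries, and the log2 fold change in the labelled triple mutant was -1.74 (SE 0.17, FDR 5.59e-06 from edgeR's test).

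*KIN1*, far lower than *KIN2* per kilobase, had 7.68 and 5.79 CPM in *sep1 sep2* and between 1.66 and 2.26 CPM in the other 4 libraries, with no overlap. Its log2 fold change in the labelled triple mutant was -2.00 (SE 0.30, FDR 0.00031 from edgeR's test). The ratio of *KIN2* to *KIN1* in CPM, not corrected for length, was between 182 and 294 in every library. Their coding sequences are 95% identical with a longest shared run of 58 bases. Reads that mapped to several places were left out, and how many came from either gene is not known, so the split is uncertain.

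*RD29A*, which encodes a hydrophilic protein induced by cold and by drought and carries 4 CRT/DRE cores, had 97.2 and 47.9 CPM in *sep1 sep2*. It had 20.6 and 7.87 CPM in the labelled triple mutant and 5.59 and 11.7 CPM in *sep1 sep2 sep3 SEP3*. The *sep1 sep2* replicates differed, yet both were above the other 4. *RD29A* was 5.15-fold lower in the labelled triple mutant (log2 fold change -2.36, SE 0.39, FDR 0.000728 from edgeR's test), and the log2 fold change was -1.75 without *sep1 sep2* replicate 1 and -3.21 without replicate 1 of the labelled triple mutant.

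*COR47*, a dehydrin gene on chromosome 1, had 141 and 112 CPM in *sep1 sep2*, 25.4 and 21.4 CPM in the labelled triple mutant and 29.9 and 53.0 CPM in *sep1 sep2 sep3 SEP3*. The 3 genotypes did not overlap, with *sep1 sep2 sep3 SEP3* between the other two. The fall in the labelled triple mutant was 5.41-fold (log2 fold change -2.44, SE 0.21, FDR 2.1e-06 from edgeR's test). *GOLS3*, a galactinol synthase gene of the raffinose pathway, had 4 and 0, 8 and 2, and 6 and 0 counts in the 3 genotypes in the same order. At this depth no difference of *GOLS3* was detectable, since 3 counts correspond to between 0.0921 and 0.125 CPM.

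**Figure D3:**
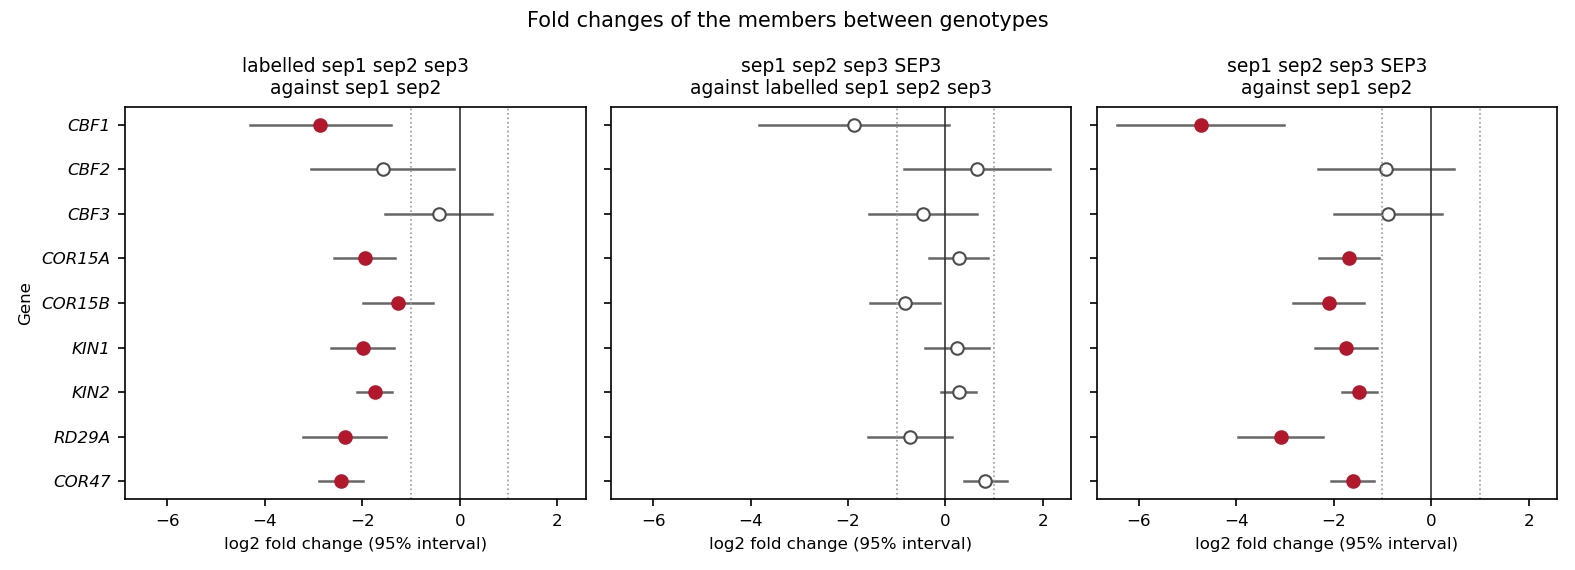
Log2 fold changes (x axis) of 9 genes (y axis) in the 3 comparisons, from one edgeR fit of all libraries. Lines are 95% intervals, filled points are called genes, open points are not called and dotted lines mark log2 fold changes of -1 and 1; *GOLS3* is left out for its few counts. The 7 filled points stand left of 0 in both comparisons with *sep1 sep2*, and none is filled between the other 2 genotypes.

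The second comparison asks what changes when *SEP3* is expressed in the *sep1 sep2 sep3* background. None of the 10 genes was called between *sep1 sep2 sep3 SEP3* and the labelled triple mutant, while 6.29% of all genes were called, 5.74% higher and 0.55% lower. At an unadjusted p under 0.05 from edgeR's test 2 of the 10 differed, *COR15B* and *COR47*, and DESeq2 called 0. The median log2 fold change was -0.11 over the 10 genes and 0.019 over all genes. *KIN1* and *COR47* were higher in both *SEP3* lines than in both labelled triple mutant libraries, and *CBF1* was lower, which held for 26.6 and 23.5% of all genes, respectively.

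*COR47* came nearest to a call, with a log2 fold change of 0.82 (95% interval 0.38 to 1.26, FDR 0.0152 from edgeR's test), or 1.77-fold higher, below the threshold on the fold change. Without line 1 it was 1.18 and called (FDR 0.000654). *KIN2* had a log2 fold change of 0.27 (95% interval -0.08 to 0.62, FDR 0.389) and *KIN1* one of 0.24 (95% interval -0.42 to 0.90, FDR 0.721). Both *SEP3* lines stayed below both *sep1 sep2* libraries in *KIN1*, *KIN2* and *COR47*.

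*COR15A* had a log2 fold change of 0.27 (95% interval -0.34 to 0.88, FDR 0.687 from edgeR's test) and was called higher at 1.14 (FDR 0.00117) without replicate 1 of the labelled triple mutant. *COR15B* had a log2 fold change of -0.83 (95% interval -1.55 to -0.12, FDR 0.138) and was called lower at -1.45 (FDR 8.99e-05) without replicate 2 of the same libraries. *RD29A* had a log2 fold change of -0.72 (95% interval -1.59 to 0.14, FDR 0.33). Which of these effectors lay higher in the *SEP3* lines thus depended on the library they were set against.

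Among the *CBF* genes, *CBF1* had a log2 fold change of -1.87 (95% interval -3.82 to 0.07, FDR 0.24 from edgeR's test). As read pairs over both libraries, *CBF1* had 7 in the labelled triple mutant and 2 in *sep1 sep2 sep3 SEP3*, a ratio of CPM of 3.76 with an exact 95% counting interval from 0.715 to 37.1. *CBF2* had a log2 fold change of 0.65 (95% interval -0.84 to 2.15, FDR 0.688) and *CBF3* one of -0.46 (95% interval -1.57 to 0.65, FDR 0.70). The intervals of all 3 are wide, so neither a change nor its absence was shown.

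The third comparison sets *sep1 sep2 sep3 SEP3* against *sep1 sep2*, and shares its *sep1 sep2* libraries with the first. Of the 10 genes 7 were called, all lower, against 1.5% of all genes called with 1.14% called lower and 0.365% higher. They were *CBF1*, *COR15A*, *COR15B*, *KIN1*, *KIN2*, *RD29A* and *COR47*. The median log2 fold change was -1.65 over the 10 genes and -0.013 over all genes. In 8 of the 10, *CBF3* included, both *SEP3* lines lay below both *sep1 sep2* libraries, which held for 23.1% of all genes. Without *sep1 sep2* replicate 1, 5 of the 10 were called.

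*RD29A* was 8.50-fold lower in *sep1 sep2 sep3 SEP3* than in *sep1 sep2* (log2 fold change -3.09, SE 0.41, FDR 0.000793 from edgeR's test), and this value was -2.47 without *sep1 sep2* replicate 1 and -3.70 without line 2. *COR15B* was 4.31-fold lower (-2.11, SE 0.34, FDR 0.00326) and *COR15A* 3.21-fold lower (-1.68, SE 0.29, FDR 0.00458). Both calls were lost when genes of low counts were left out (FDR up to 0.0663 and 0.0739), and without line 1 (*COR15B*, FDR 0.0515) or line 2 (*COR15A*, FDR 0.0785). *KIN2* fell by 1.47 on the log2 scale (SE 0.17, FDR 0.000234), *COR47* by 1.61 (SE 0.20, FDR 0.000551) and *KIN1* by 1.75 (SE 0.30, FDR 0.00394). The call of *KIN1* was lost without *sep1 sep2* replicate 1 (FDR 0.0563), while those of *KIN2*, *RD29A* and *COR47* held in 15 of 15 alternatives in this comparison and in the first.

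*CBF1* had 49 read pairs over both *sep1 sep2* libraries and 2 over both *SEP3* lines, a ratio of CPM of 28.5 with an exact 95% counting interval from 7.49 to 242. The fitted log2 fold change was -4.73 (SE 0.80, FDR 0.00394 from edgeR's test), and without *sep1 sep2* replicate 1 the FDR was 0.0549. *CBF2* had a log2 fold change of -0.93 (SE 0.65, FDR 0.542) and *CBF3* one of -0.89 (SE 0.52, FDR 0.43), neither past the test.

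Replicates of a genotype differed too. Over the 6 effectors other than *GOLS3*, *sep1 sep2* replicate 1 was the highest library in 5 and replicate 2 in 1, against 16.0 and 21.1% of all genes tested. Both were the top 2 libraries in 6 of 6, against 12.5% of all genes. These 6 are the effectors called lower against the same *sep1 sep2* libraries, so this rank repeats those calls. Replicate 2 of the labelled triple mutant was the lowest in 5 and *SEP3* line 1 in 1, against 17.7 and 12.5% of all genes.

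The genes whose profile was most like that of the set were sought among 15558 others whose mean reached 5 CPM, by Pearson's r of log2 CPM over the 6 libraries, as a description. For the mean profile of the 3 *CBF* genes these were *NiaP* (r = 0.989), a nicotinate transporter gene, AT4G36010 (0.988), a thaumatin family gene, *NYC1* (0.987) for chlorophyll b reductase, the beta-amylase gene *BAM3* (0.985) and the glutathione peroxidase gene *GPX6* (0.985). For the 7 effectors they were AT1G13990 (0.993), AT3G30214 (0.991), *NiaP* again (0.990), *IVD* for isovaleryl-CoA dehydrogenase (0.987) and the glutamate decarboxylase gene *GAD2* (0.984). These values rest on 6 libraries of 3 genotypes and carry no test. They do not measure the size of a change. *NiaP* ranged only from 9.94 to 12.6 CPM and *IVD* from 21.9 to 30.7 CPM, while *BAM3* ranged from 73.3 to 365 CPM. Without *GOLS3*, whose counts are few, the gene most like the other 6 effectors was *WRKY53* (0.994), followed by AT1G13990 (0.993).

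Relatives of the *CBF* genes in the same family were also lower. Of 5 relatives, 4 were called lower in the labelled triple mutant and 1 in *sep1 sep2 sep3 SEP3*, both against *sep1 sep2*. Over all genes, 7.3 and 1.14% were called lower in these comparisons and 0.939 and 0.365% higher. The counts of the lists below stand beside the same shares. This list and those below were chosen with earlier results of these data known, so the shares serve as description and not as a test. *DDF1*, a DREB1 gene known from gibberellin and salt responses, had 332 and 42 counts in *sep1 sep2*, 4 and 0 in the labelled triple mutant and 2 and 6 in *sep1 sep2 sep3 SEP3*. The *sep1 sep2* replicates differed several-fold, and both were above the other 4 (FDR 0.000422 and 0.00327 from edgeR's test). *DDF2*, its closest relative, had 1.35 and 0.25 CPM in *sep1 sep2* and no count in either labelled triple mutant library. *DREB2A* and *DREB2B*, which act in drought and heat, changed by -1.68 and -1.67 (FDR 0.00486 and 0.0096) in these libraries. Without replicate 2 of the labelled triple mutant, 1 of the 5 relatives was called, and in *sep1 sep2 sep3 SEP3* 0 were called without *sep1 sep2* replicate 1 or without line 1. None was called between *sep1 sep2 sep3 SEP3* and the labelled triple mutant by edgeR (2 at an unadjusted p under 0.05) or by DESeq2, and 2 were without replicate 1 of the latter.

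Most of the other listed genes of the first wave after cold or touch were lower too. Of 14 such genes 13 were called lower in the labelled triple mutant and 11 in *sep1 sep2 sep3 SEP3* against *sep1 sep2*. Of all genes 7.3 and 1.14% were. In *sep1 sep2 sep3 SEP3* against the labelled triple mutant 1 of the 14 was called higher, against 5.74% of all genes. It was *RAV1* for an AP2/B3 factor (log2 fold change 1.04, FDR 0.0255 from edgeR's test). The zinc finger gene *ZAT10* had 15.7 and 5.25 CPM in *sep1 sep2* and between 0.369 and 0.968 CPM elsewhere. *TCH4*, a touch-induced gene for a cell wall enzyme, had 54.0 and 17.8 CPM in *sep1 sep2* and between 1.84 and 5.68 CPM elsewhere.

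*WRKY40*, an early stress gene, had 31.2 and 2.91 CPM in *sep1 sep2* and between 0.605 and 0.949 CPM elsewhere. *ZAT12*, whose product limits the *CBF* genes, had 12.3 and 4.66 CPM in *sep1 sep2* and between 0.678 and 2.46 CPM elsewhere, and *ERF6* had 11.7 and 4.08 CPM and between 0.61 and 1.09 CPM. All 5 were higher in *sep1 sep2* replicate 1 than in replicate 2. The sum of the 14 genes was 623 and 299 CPM in *sep1 sep2*, 110 and 117 CPM in the labelled triple mutant and 141 and 182 CPM in *sep1 sep2 sep3 SEP3*. Without *sep1 sep2* replicate 1, 6 instead of 11 were called in *sep1 sep2 sep3 SEP3*, and the *RAV1* call was lost without either replicate of the labelled triple mutant or without line 2, while 2 were called without line 1. Their part in the difference of the *CBF* genes and effectors was not tested.

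Of 17 known regulators of the *CBF* genes, 4 were called in the labelled triple mutant against *sep1 sep2* and 3 in *sep1 sep2 sep3 SEP3*. In the labelled triple mutant, *PRR9*, *CCA1* and *LHY*, clock genes that peak in the morning, were called higher and *PIF7*, a light-regulated repressor of the *CBF* genes, was called lower (log2 fold change -1.92, FDR 0.0344 from edgeR's test). *ICE1* and *ICE2*, for activators of the *CBF* genes, passed the FDR but not the fold threshold (log2 fold change 0.34 and 0.91, FDR 0.0343 and 4.05e-05). *SOC1*, another of the 17, did so in the other direction (log2 fold change -0.78, FDR 0.00115). In *sep1 sep2 sep3 SEP3* against the labelled triple mutant, *ICE2* and *SOC1* passed the FDR alone at -0.59 and 0.70 (FDR 0.00177 and 0.00293). *CCA1* had 8.59 and 9.91 CPM in *sep1 sep2*, 25.3 and 69.4 CPM in the labelled triple mutant and 31.8 and 21.2 CPM in *sep1 sep2 sep3 SEP3*.

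*LHY* ran in parallel, with 6.41 and 7.41 CPM, 17.5 and 107 CPM, and 38.6 and 24.4 CPM. *PRR9* had 2.69 and 2.83 CPM, 13.3 and 19.7 CPM, and 12.0 and 6.37 CPM. The clock gene *PRR5*, which peaks later in the day, had 77.5 and 73.9 CPM, 47.1 and 4.68 CPM, and 15.7 and 47.3 CPM, and was not called in any comparison. A further clock gene, *PRR7*, had between 139 and 200 CPM in every library and was not called either. Both *sep1 sep2* libraries thus lay below the other 4 in *CCA1*, *LHY* and *PRR9*, and replicate 2 of the labelled triple mutant, the lowest in most effectors, was the highest in all 3.

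Against *sep1 sep2*, the log2 fold changes of *LHY*, *PRR9* and *CCA1* were 3.18, 2.58 and 2.36 in the labelled triple mutant (FDR no higher than 0.00102 from edgeR's test) and 2.19, 1.74 and 1.52 in *sep1 sep2 sep3 SEP3* (FDR no higher than 0.0367). In *sep1 sep2 sep3 SEP3* 1 of the 3 calls was left without either *sep1 sep2* replicate or without line 1, and 0 when genes of low counts were left out. Between *sep1 sep2 sep3 SEP3* and the labelled triple mutant 0 of 17 were called by edgeR (6 at an unadjusted p under 0.05) and by DESeq2, 4 were without replicate 1 of the latter and 1 without either line. The part of the clock genes in the difference of the effectors was not tested, and the hour of harvest of each library is not given in the sources used here.

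Of 22 further cold-responsive effector genes, 9 were called lower and 1 higher in the labelled triple mutant against *sep1 sep2*. Among the called genes the largest falls were those of *LTI30* (log2 fold change -3.17, FDR 0.00689 from edgeR's test), a dehydrin gene, *GRP7* (-2.23, FDR 0.0288), a clock-regulated gene for an RNA-binding protein, *RCI2A* (-1.58, FDR 0.00992), for a small membrane protein, and *ERD7* (-1.44, FDR 0.00183). *LTI30* had few counts, 124 and 52 in *sep1 sep2* and 18 and 2 in the labelled triple mutant, the last below the floor of 3 counts. *GRP7* had 3252 and 3432 CPM in *sep1 sep2*, 1301 and 128 CPM in the labelled triple mutant and 479 and 1054 CPM in *sep1 sep2 sep3 SEP3*. The gene called higher was *GOLS1*, like *GOLS3* a galactinol synthase gene, at 1.07 (FDR 0.00544). Without *sep1 sep2* replicate 1, 4 of the 22 were called, and without replicate 2 of the labelled triple mutant, 2.

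In *sep1 sep2 sep3 SEP3*, 5 of the 22 were called lower than in *sep1 sep2*, and 1 was when *sep1 sep2* replicate 1 or line 1 was left out. *COR413IM1*, for a protein of the chloroplast inner envelope, stood at 71.1 and 56.2 CPM in *sep1 sep2*, 50.5 and 34.7 CPM in the labelled triple mutant and 24.6 and 15.2 CPM in *sep1 sep2 sep3 SEP3*, and its 3 genotypes did not overlap. It had the largest fall among the 5 called genes (-1.67, FDR 0.000555 from edgeR's test), followed by *BAM3* (-1.46, FDR 0.0234), *RCI2A* (-1.43, FDR 0.0461) and *LEA14* (-1.29, FDR 0.0193). *COR413IM1* was also lower than in the labelled triple mutant (-1.09, FDR 0.00259), where *RCI2B* was higher (1.40, FDR 0.0104). Without line 1, 1 instead of these 2 was called.

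Of 10 genes of the abscisic acid response, 5 differed between the labelled triple mutant and *sep1 sep2* at an unadjusted p under 0.05 from edgeR's test. Of these 4 passed the FDR. *ABI1* (-0.42) and *ABF3* (-0.85) were lower and *RD22* (0.45) was higher, all below the fold threshold. In this comparison 1 of the 10 was called, against 8.24% of all genes. It was *RD26* for a NAC factor, at -1.02 (FDR 0.0294 from edgeR's test). This call was lost without *sep1 sep2* replicate 1 and without either labelled triple mutant library. None of the 10 was called by edgeR in the other comparisons, where 4 and 6 differed at an unadjusted p under 0.05 and DESeq2 called 0 and 1, respectively, and 1 was called by edgeR between *sep1 sep2 sep3 SEP3* and *sep1 sep2* without *sep1 sep2* replicate 2. *RD29B*, the neighbour and relative of *RD29A* that responds mainly to abscisic acid, had between 0 and 0.583 CPM, and *RAB18* had between 4.54 and 7.21 CPM.

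**Figure D4:**
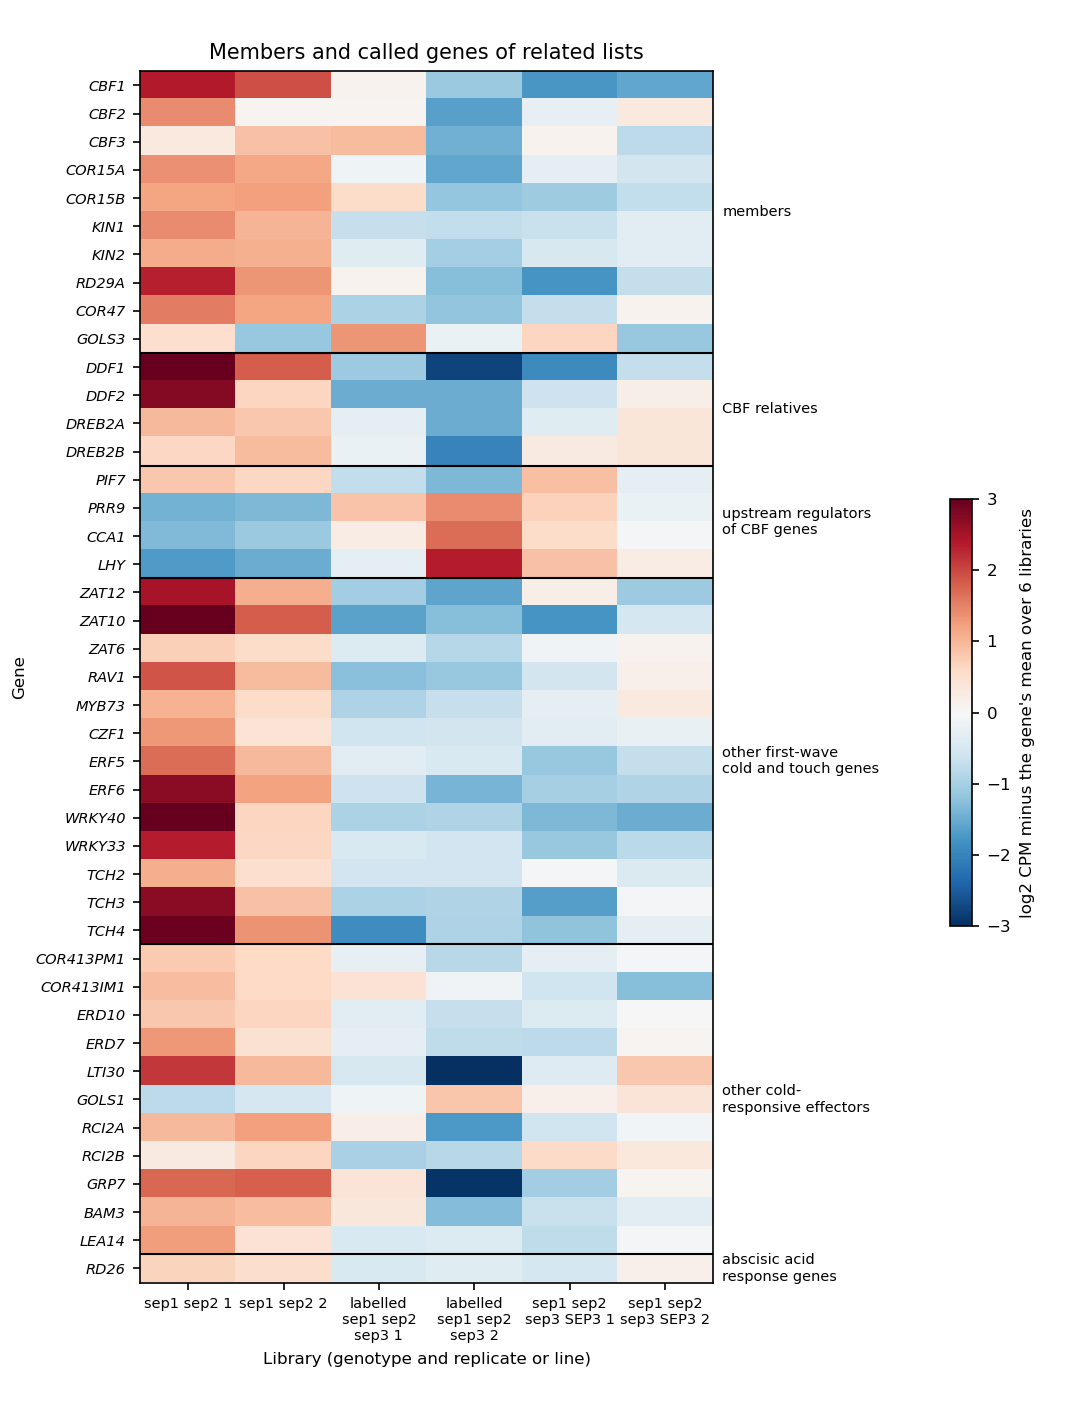
Log2 CPM of the 10 genes and of the 33 genes of the related lists that were called in any comparison, minus the mean of each gene over the 6 libraries (colour, log2 units, with 4 values beyond the ends of the scale); rows are genes and columns libraries. Most rows are red in both *sep1 sep2* libraries and paler or blue in the other 4, and *PRR9*, *CCA1*, *LHY* and *GOLS1* show the opposite.

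The levels of genes that mark other floral tissues are given beside the effectors. All 14 tapetum and pollen wall genes were called lower in the labelled triple mutant than in *sep1 sep2* (7.3% of all genes). All 14 were called higher in *sep1 sep2 sep3 SEP3* than in the labelled triple mutant (5.74% of all genes). Of 10 carpel and ovule genes, 8 and 7 did the same. Their summed level was 129 and 133 CPM in *sep1 sep2*, 69.9 and 58.3 CPM in the labelled triple mutant and 126 and 133 CPM in *sep1 sep2 sep3 SEP3*. Maturing seeds and pollen are known to store proteins related to the effectors. The sum of 4 maturing seed genes was between 0.0833 and 0.554 CPM, with *EM1* at 0 in every library. That of 3 mature pollen genes was between 0.167 and 1.45 CPM. Of these, *VGD1* was called higher in *sep1 sep2 sep3 SEP3* than in the labelled triple mutant (log2 fold change 7.59, FDR 0.0253 from edgeR's test). It had 12 and 36 counts in the *SEP3* lines and 0 in both labelled triple mutant libraries. The sum of 4 genes of green tissue was 9435 and 9533 CPM in *sep1 sep2*, 12349 and 14552 CPM in the labelled triple mutant and 8479 and 7190 CPM in *sep1 sep2 sep3 SEP3*. The part of these tissues in the levels of the *CBF* genes and effectors was not tested.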

How the data were processed

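RNA-seq gene counts of 6 libraries, 2 per genotype, were used. The authors mapped the read pairs to TAIR10 with STAR, leaving out reads that map to several places, and deposited whole-number counts per gene from featureCounts without normalization, while tool versions and the use of strand are not given in the sources used here. The wild type was not analysed here. The 2 comparison tables of the authors (fold changes, mean expression, test statistics, p-values and FDR) were not used.

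Counts of the 25458 genes detected in 1 or more libraries were fitted together in R 4.3.3 with edgeR 4.0.16 (limma 3.58.1), TMM normalization and a mean per genotype, and tested with the quasi-likelihood test. Called genes had a Benjamini-Hochberg FDR under 0.05 and an absolute log2 fold change over 1. The SE is the fold change divided by the root of F, and the prior count was 0.125. The fit was also run on counts simulated from the same kind of model, which does not check how well the spread between replicates was measured. Depth was 24000063 to 31263376 counts per library (median 24884508.5). Intervals of *CBF1* ratios are exact binomial on counts divided by 2, and they and floors of 3 counts cover counting error only.

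The 10 genes and all lists were chosen with earlier results of these data known. Besides the 10 genes and the *SEP* genes, up to 4 called genes of largest fold change per list and comparison were named, and 5 genes per profile. *ICE1*, *ICE2*, *SOC1*, *PRR5*, *PRR7*, *ABI1*, *ABF3*, *RD22*, *RD29B* and *RAB18* were named after their values were seen. Sequences and coordinates are from RefSeq TAIR10.1, and all 10 genes matched by locus tag. The 15 alternatives comprised DESeq2 1.42.0 as test or size factors, library totals, 2 filters on low counts, only the genotypes compared, FDR alone, a replicate block, halved counts and each library left out.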

Additional observations from a re-analysis of the deposited data

How the results depend on the processing

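Over 440 recalculations of the 30 fold changes of the 10 genes, 407 kept their direction and side of the threshold, 17 fell below it, 5 passed it and 11 changed sign. With each library left out, 5 to 8 of the 10 were called in the labelled triple mutant and 5 to 7 in *sep1 sep2 sep3 SEP3*, both against *sep1 sep2*, and between the former groups 0 to 1 (1 by FDR alone). All changes of sign came with a library left out. In the labelled triple mutant against *sep1 sep2* the log2 fold change then ranged from -2.11 to 0.34 for *CBF3* and from -0.23 to 5.43 for *GOLS3*. In *sep1 sep2 sep3 SEP3* against the labelled triple mutant it ranged from -0.062 to 1.95 for *CBF2*, -1.23 to 1.21 for *CBF3*, -0.28 to 1.14 for *COR15A*, -1.45 to 0.25 for *COR15B*, -0.023 to 0.64 for *KIN2*, -1.33 to 0.12 for *RD29A* and -5.34 to 0.52 for *GOLS3*. Signs changed in *CBF2*, *COR15A* and *KIN2* without replicate 2 of the labelled triple mutant and in the other 4 without replicate 1. In *sep1 sep2 sep3 SEP3* against *sep1 sep2* it ranged from -4.12 to 4.49 for *GOLS3*, with -0.65 without *sep1 sep2* replicate 2. The cause was not tested.

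Over all genes, 4020, 3174 and 1050 were called by FDR alone in the 3 comparisons instead of 2098, 1601 and 383, and 1376 to 2116, 1062 to 1473 and 198 to 400 with each library left out. In the third, 166 and 164 were called with over 1 CPM in at least 2 libraries and with edgeR's own filter, and 245 with the replicate block. Replicate numbers did not pair the libraries (r of the deviations of same-numbered libraries -0.0855, -0.034 and 0.0499 over 18703 genes), and with the replicate number as a block 7, 0 and 7 of the 10 genes were called. Other scalings moved the median of all genes by at most 0.0911 on the log2 scale. At this depth *GOLS3* and, in *sep1 sep2 sep3 SEP3*, *CBF1* lay near or below the floor of 3 counts.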
